A study of Arabidopsis thaliana with 6 samples.

Results

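The genes described here are F-box genes whose proteins carry an FBD domain or leucine-rich repeats, and 60 Arabidopsis loci of this type were listed. A locus counted as measured if a probe set of the Affymetrix ATH1 array is annotated to that locus and no other, and 25 of the 60 were. A further 7 are named only together with another gene, and 28 are not named for a probe set, so that these 35 give no value of their own. RNA came from inflorescences with young flower buds, from 3 *tink/ibr5-6* mutants and 3 wild-type Landsberg *erecta* (L*er*) plants, each plant hybridised to an array of its own. The *tink/ibr5-6* plants carry a point mutation that replaces the catalytic cysteine of the dual-specificity MAPK phosphatase IBR5. The allele was recovered by EMS mutagenesis of *klu-2* plants, and 3 backcrosses to L*er* separated it from *klu-2*. Both groups are thus in the L*er* background, the mutant group stands for 1 allele, and no age of the plants is given in the sources used here. *IBR5* itself has no probe set of its own in the annotation, so its level was not analysed here.

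F-box proteins are the subunits of SCF ubiquitin ligases that choose the substrate. Through the F-box they bind SKP1-like (ASK) proteins, which sit on a cullin, and through the rest of the protein they bind the target, which is then marked with ubiquitin for degradation by the proteasome. Leucine-rich repeats are a common substrate-binding part, as in the auxin receptors TIR1 and AFB, while the FBD domain is a plant motif of unknown function that often follows such repeats. Plants have unusually many F-box genes. The FBD and leucine-rich repeat genes are a fast-evolving part of the family, often lie in tandem groups, and for most of them no substrate is known.

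Values are those deposited by the authors, gcrma signals on a log2 scale, and limma was used to compare the genotypes at each probe set. A gene was called at an adjusted p under 0.05 (Benjamini-Hochberg over all 22746 probe sets) and an absolute log2 fold change above 1, the thresholds of the methods. The medians of the 6 arrays lay between 6.18 and 6.20, and the lowest value in the table was 2.10. Whether the plants shared a growth batch is not stated, so the p-values rest on the spread among these plants alone. With 3 arrays in each genotype, the smallest p of an exact permutation test is 0.1.

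Of the 25 measured F-box genes, 1 was higher and 1 was lower in *tink/ibr5-6* inflorescences compared to the wild-type, and 23 did not pass the test. AT5G44980 was 2.25-fold higher and AT4G13960 was 2.50-fold lower. The share called, 8%, stands beside 4.25% of all probe sets, with 1.53% called higher and 2.71% called lower. This difference is one of few genes and was not tested. The median log2 fold change of the 25 genes was 0, as it was over all probe sets. The loci themselves were listed by domain type, but AT5G44980, AT4G13960 and AT1G78750 are also in the study's list of cyclin and related genes. The study reports several altered F-box genes from that list. It was drawn up from these same arrays, and the members were chosen with earlier results of these data known. Neither the share called nor the direction of these genes is therefore independent evidence. AT1G78750 was not called here (log2 fold change 0.76, adjusted p = 0.155 from limma).

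Signal was the first divide among the members. Under a log2 value of 3, taken as a low level with the values known, lay 11 of the 25 genes on all 6 arrays and 31.5% of all probe sets. Of these 11, the genes AT1G19410, AT1G60400, AT1G80960, AT3G14710, AT4G15060, AT4G26340, AT5G02920 and AT5G22600 had the lowest value of the table on every array. AT1G66310 and AT1G32375 lay between 2.10 and 2.38 on all arrays, and AT1G16940 reached 2.79 on *tink/ibr5-6* replicates 2 and 3 against 2.16 on replicate 1 and 2.14 to 2.16 on the L*er* arrays. For these genes the arrays gave no signal above the low level in either genotype, and their fold changes say nothing about expression below it. Of the other 14 genes, 11 lay above 3 on every array and 3 on some.

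**Figure D1:**
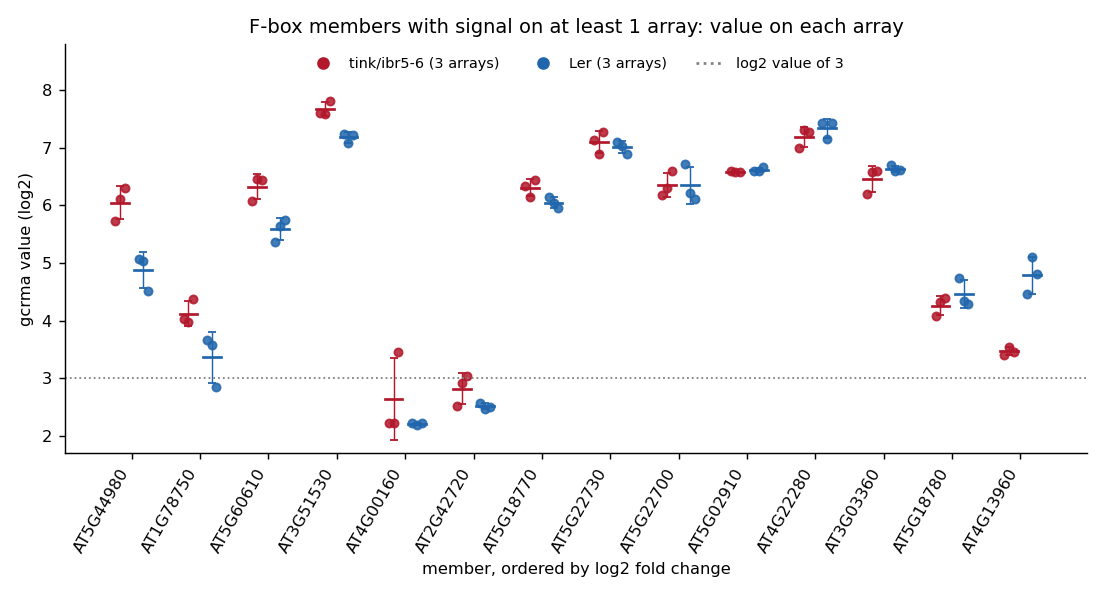
Deposited gcrma value (log2 scale) on each of 3 *tink/ibr5-6* and 3 L*er* arrays for the 14 members with a value of 3 or above on at least 1 array, in the order of their log2 fold change. Points are single arrays, horizontal lines are means, error bars are 1 SD and the dotted line marks a log2 value of 3. The points of the genotypes are separate for AT5G44980, AT1G78750, AT5G60610, AT3G51530 and AT4G13960.

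The member that was called higher, AT5G44980, is described in the study's gene lists as an F-box family gene similar to FBD proteins. Its log2 values were 5.73, 6.11 and 6.29 on the *tink/ibr5-6* arrays and 5.08, 5.03 and 4.51 on the L*er* arrays. Every mutant array thus lay above every wild-type array, by at least the distance from 5.08 to 5.73. The means were 6.04 ± 0.29 (SD, n = 3) and 4.87 ± 0.31 (SD, n = 3), and the log2 fold change was 1.17 (standard error 0.23, 95% interval 0.54 to 1.80, adjusted p = 0.041 from limma). The call did not hold in any of the 6 fits that leave out 1 array, where its log2 fold change ranged from 0.99 to 1.33 and its adjusted p from 0.066 to 0.129, nor with a trend and robust prior (adjusted p = 0.050002). Because the arrays did not overlap, leaving out 1 array could not reverse the direction, and the prior does not alter the fold change.

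The member that was called lower, AT4G13960, is described there only as an F-box family gene. Its log2 values were 3.41, 3.54 and 3.45 on the *tink/ibr5-6* arrays, which differed little from each other and lay close above the level of 3, and 4.46, 5.11 and 4.80 on the L*er* arrays. The genotypes did not overlap. The means were 3.47 ± 0.07 (SD, n = 3) and 4.79 ± 0.32 (SD, n = 3), and the log2 fold change was -1.32 (standard error 0.18, 95% interval -1.81 to -0.84, adjusted p = 0.017 from limma). The call held without L*er* replicate 1 and without L*er* replicate 2, with adjusted p of 0.019 and 0.035. It did not hold without any 1 of the *tink/ibr5-6* arrays or without L*er* replicate 3, where the adjusted p was 0.063 to 0.068 and the log2 fold change -1.36 to -1.29.

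Genes of mature pollen moved in the same direction as AT4G13960. Of a list of 20 pollen markers 8 were measured, and 5 of them, *PLIM2A*, *SWEET5*, *ANX2*, *BUPS1* and *AGL104*, were lower and none was higher. The summed signal of the 8, on a linear scale, was 61.6 to 107 on the *tink/ibr5-6* arrays and 1380 to 1824 on the L*er* arrays, and *BUPS2* and *AGL65* lay under 3 on all arrays. The sperm marker *HTR10* had a log2 fold change of -2.95 and was not called. In the other direction, the tapetum markers *AMS* and *A9*, 2 of 10 measured, had log2 fold changes of 0.89 and 0.35. Their arrays did not overlap between genotypes, and *AMS* had an adjusted p of 0.025 from limma but missed the limit on the fold change, while *A9* had one of 0.060. Their summed signal was 7192 to 8644 on the *tink/ibr5-6* arrays and 6063 to 6499 on the L*er* arrays. The part of these cell types in the values of AT4G13960 and of the members with higher values was not tested. In such samples fewer cells of a type and less RNA per cell cannot be told apart. None of 8 floral organ identity genes is named alone for a probe set, so the tissue was checked through the tapetum and pollen markers, of which *AMS*, *A9*, *SWEET5* and *BUPS1* lay above 3 on all arrays.

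Between a call and no signal lay 3 members whose arrays did not overlap and which were all higher in *tink/ibr5-6*. AT3G51530 had log2 values of 7.60, 7.59 and 7.81 in *tink/ibr5-6* and 7.25, 7.07 and 7.22 in L*er*. The difference was small beside a call and large beside the replicates, since the log2 fold change was 0.49 ± 0.09 (standard error) and the adjusted p from limma was 0.030. It passed on p but not on the fold change, and without any 1 array the adjusted p was 0.053 to 0.089.

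AT5G60610 had log2 values of 6.07, 6.45 and 6.44 in *tink/ibr5-6* and 5.37, 5.64 and 5.75 in L*er*. Its log2 fold change of 0.73 (standard error 0.16, 95% interval 0.30 to 1.17) had an adjusted p of 0.052 from limma, so that it met neither threshold. AT1G78750 had log2 values of 4.02, 3.97 and 4.37 in *tink/ibr5-6* and 3.66, 3.58 and 2.85 in L*er*. L*er* replicate 3 stood below the other wild-type arrays and under the level of 3. The log2 fold change was 0.76 (standard error 0.27, 95% interval 0.03 to 1.49, adjusted p = 0.155 from limma), and it was 0.50 without L*er* replicate 3.

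Counted together, 5 of the 25 members had arrays that did not overlap between genotypes. In *tink/ibr5-6* 4 of these were higher and 1 was lower. Arrays did not overlap in 35.7% of all probe sets, 21.3% higher and 14.4% lower, and in 20% of the members, 11 of which lay under 3 throughout. With a log2 fold change beyond 0.5 in either direction there were 4 such members, beside 15.5% of all probe sets. At an adjusted p under 0.05 with no limit on the fold change, 3 members passed, 2 higher and 1 lower, beside 16.3% of all probe sets, 9.6% higher and 6.65% lower.

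**Figure D2:**
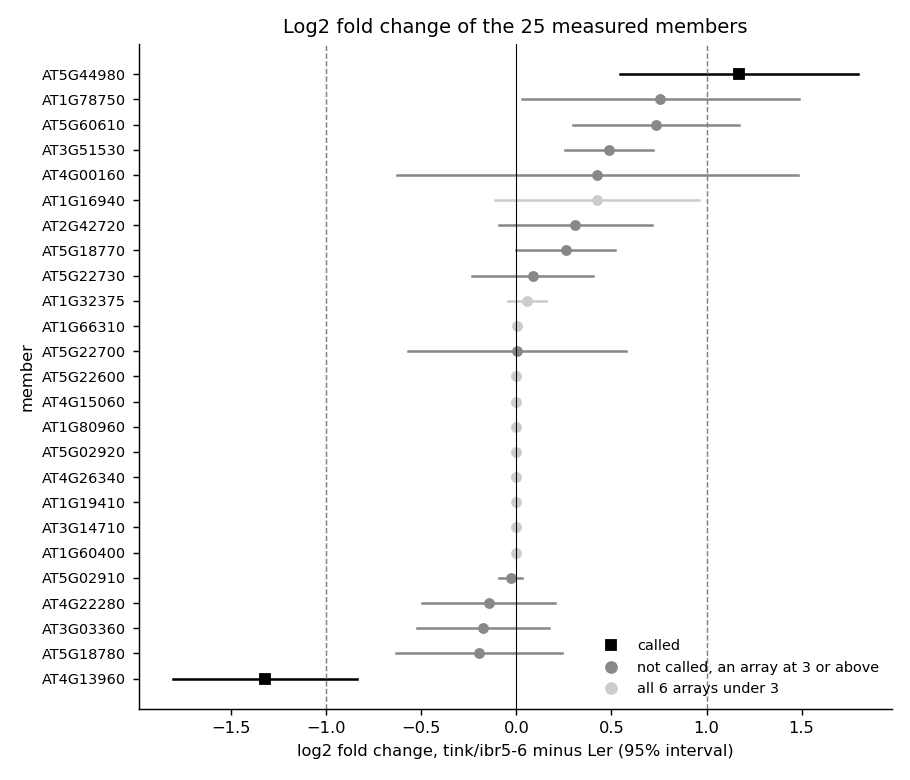
Log2 fold change (*tink/ibr5-6* minus L*er*) of the 25 measured members with its 95% interval from limma. Black squares are called, dark grey points are not called and have an array at 3 or above, and light grey points lay under 3 on all 6 arrays; the dashed lines mark log2 fold changes of -1 and 1. AT5G44980 with 1.17 and AT4G13960 with -1.32 are the 2 genes beyond the dashed lines.

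The intervals set how large a change could have gone unseen. For AT4G22280, with log2 values of 6.99 to 7.31 in *tink/ibr5-6* and 7.15 to 7.43 in L*er*, the 95% interval of the log2 fold change was -0.49 to 0.20. For AT3G03360, with 6.20 to 6.60 and 6.60 to 6.70, it was -0.52 to 0.17, and *tink/ibr5-6* replicate 1 was the low array. A change beyond the limit for a call thus lay outside the interval for both genes. The interval reached beyond that limit for the uncalled AT4G00160 (-0.63 to 1.48), AT1G78750 (0.03 to 1.49) and AT5G60610 (0.30 to 1.17).

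AT4G00160 had signal on 1 array, *tink/ibr5-6* replicate 3 with 3.46, and lay at 2.18 to 2.22 on the other 5. Its log2 fold change of 0.43 (standard error 0.39) therefore rests on that array, and it was 0.01 without it. AT2G42720 lay between 2.46 and 2.91 on 5 arrays and reached 3.03 on *tink/ibr5-6* replicate 3, with a log2 fold change of 0.31 (limma, adjusted p = 0.27). Without *tink/ibr5-6* replicate 1 its log2 fold change was 0.46 and its adjusted p 0.040, and without *tink/ibr5-6* replicate 3 they were 0.20 and 0.498. Neither gene was called.

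Many of the listed genes lie in groups along the chromosomes. With at most 3 other genes between neighbours in the RefSeq gene order, 33 of the 60 form 13 groups, and 13 of these 33 were measured. Its positions were used for chromosome neighbourhood only, since no genome build is named for the values. The same annotation linked the gene IDs of probe sets to loci. The gene symbol was used where it lacked the ID, as for the probe set of AT5G22700 with the higher mean. Close relatives can share probe sequence, and 5 probe sets name a member among several genes. Among these, only the probe set of AT4G14096 and AT4G14103 names genes of the same group.

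AT5G18770 and AT5G18780 lie side by side and were both measured. AT5G18770 had log2 values of 6.34, 6.14 and 6.43 in *tink/ibr5-6* and 6.15, 6.03 and 5.96 in L*er*, and its log2 fold change was 0.26 (95% interval 0.0007 to 0.52). AT5G18780 had 4.07, 4.32 and 4.39 in *tink/ibr5-6* and 4.74, 4.35 and 4.28 in L*er*, and its log2 fold change was -0.20 (95% interval -0.63 to 0.24). It was -0.05 without L*er* replicate 1 and -0.04 after quantile normalization. The arrays of the genotypes overlapped in both, neither was called, and the difference between these neighbours was not tested.

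In the group from AT5G22660 to AT5G22730, with 5 listed genes, AT5G22700 and AT5G22730 were measured. AT5G22700 had log2 values of 6.17, 6.30 and 6.59 in *tink/ibr5-6* and 6.72, 6.21 and 6.11 in L*er*, with a log2 fold change of 0.00 (95% interval -0.57 to 0.58). L*er* replicate 1 was its highest array, and was also the highest, with 5.61, on the second probe set of the gene, whose log2 fold change was 0.03. AT5G22730 had 7.13, 6.89 and 7.27 in *tink/ibr5-6* and 7.10, 7.03 and 6.90 in L*er*, with a log2 fold change of 0.09 (95% interval -0.23 to 0.41). The neighbouring group of AT5G22600 and AT5G22610 had 1 measured gene, AT5G22600, at the lowest value throughout.

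In the group from AT5G02910 to AT5G02930, AT5G02920 was at the lowest value and AT5G02910 stood at 6.58 to 6.66 on all arrays. The value of AT5G02910 was the same to 9 decimals, 6.59, on *tink/ibr5-6* replicate 1 and L*er* replicates 1 and 2. Among the 2240 probe sets averaging 6 to 7 on the log2 scale, 78 (3.48%) shared 1 value on 3 or more arrays. Its log2 fold change was -0.03 with a 95% interval of -0.09 to 0.03, which rests in part on these repeated values.

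The measured genes beside AT5G44980 had no signal with which to compare, while some of those beside AT4G13960 did. AT5G44980 lies in a group with AT5G44950, which is not named for a probe set, and the nearest 2 measured genes on each side, none of them a member, were at the lowest value of the table on all arrays. Around AT4G13960 the nearest measured genes were AT4G13950, with a log2 fold change of 0.10, and AT4G13990, at log2 values of only 3.09 to 3.14, with 0.00, and neither was called.

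The probe sets that name several genes give a value for a pair of loci and none for a single one. The pair AT4G10400 and AT4G09920, of which only the former is listed, had log2 values of 5.59, 5.37 and 5.84 in *tink/ibr5-6* and 4.25, 5.15 and 5.07 in L*er*. The arrays did not overlap, and the log2 fold change was 0.78 (standard error 0.30, 95% interval -0.04 to 1.59, adjusted p = 0.183 from limma). The pair AT4G00320 and AT5G41830 had 5.78 to 5.99 in *tink/ibr5-6* and 5.49 to 6.24 in L*er*, with a log2 fold change of 0.09. The neighbours AT4G14096 and AT4G14103, both listed, shared a probe set with the same value, 4.64, on 4 of 6 arrays. The probe sets of AT1G66320 with AT1G66640 and of AT5G02700 with AT3G28410 were at or near the lowest value throughout. None of the 5 was called.

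The other parts of the ubiquitin ligase were set beside these F-box genes. Of 33 genes for the core and the regulators of SCF complexes 7 were measured. The limma test called none of them, with 2 at an adjusted p under 0.05 and the same 2 at an unadjusted p under 0.05. *SGT1A*, which encodes a co-chaperone that binds SKP1-like proteins, had log2 values of 7.67, 7.77 and 7.62 in *tink/ibr5-6* and 6.91, 6.68 and 6.89 in L*er*, and its log2 fold change was 0.86 (limma, adjusted p = 0.0086). *ASK18*, a SKP1-like gene, had 9.06, 9.09 and 9.25 against 8.59, 8.30 and 8.64, and its log2 fold change was 0.62 (limma, adjusted p = 0.035). Both were separate between genotypes but under the limit on the fold change. *CSN5B*, for a subunit of the COP9 signalosome, which removes the RUB modifier from cullins, had a log2 fold change of 0.38. *ASK15*, *ASK16*, *ASK19* and *RBX1B*, which encodes a RING subunit, lay under 3 on all arrays.

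Of 29 F-box genes of known function outside the list 7 were measured. Again limma called none, with 1 at an adjusted p under 0.05 and 2, *SKP2A* and *DOR*, at an unadjusted p under 0.05. *SKP2A*, which encodes an F-box protein with leucine-rich repeats that acts on cell cycle factors, had log2 values of 7.78, 7.77 and 7.75 in *tink/ibr5-6* and 8.26, 8.21 and 8.43 in L*er*, and its log2 fold change was -0.53 (limma, adjusted p = 0.013). *FBL17*, a leucine-rich repeat F-box gene of the pollen cell cycle, had a log2 fold change of 0.21 and *SLY1*, for the F-box protein of gibberellin signalling, one of -0.02. *CEG* lay at the lowest signal in *tink/ibr5-6*, 2.10 to 2.11, and at 2.42, 3.36 and 4.53 in L*er*, a spread within the wild-type that left it uncalled (log2 fold change -1.33, adjusted p = 0.22 from limma). *DOR* had 0.67, *SNE* had 0.53, and *UFO* was at the lowest value on all arrays. None of the auxin receptor genes *TIR1* and *AFB1* to *AFB5* was measured.

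**Figure D3:**
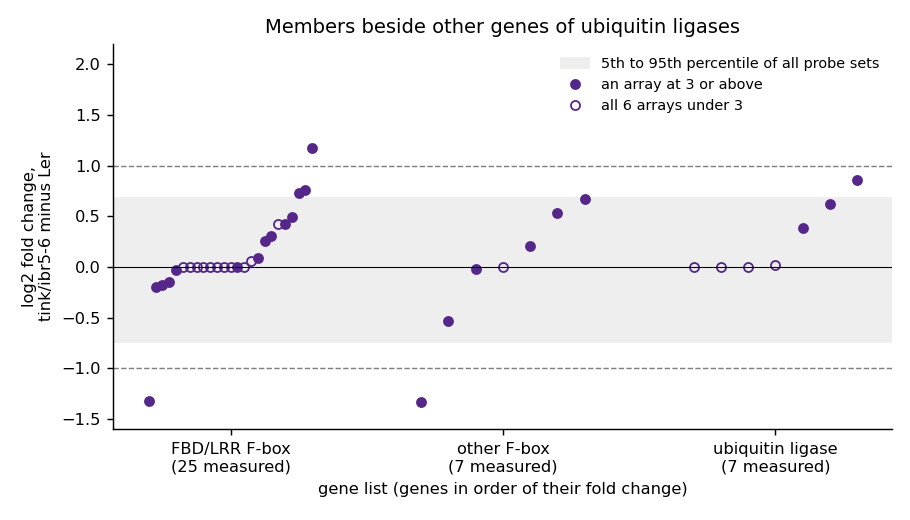
Log2 fold change (*tink/ibr5-6* minus L*er*) of each measured gene in 3 lists, the FBD and leucine-rich repeat F-box genes (25 genes), other F-box genes of known function (7) and genes for the core and regulators of the ubiquitin ligase (7). Open circles lay under a log2 value of 3 on all arrays, the grey band spans the 5th to the 95th percentile of all probe sets (-0.74 to 0.68) and the dashed lines mark log2 fold changes of -1 and 1. Members beyond the band are AT4G13960 below and AT5G44980, AT1G78750 and AT5G60610 above.

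The calls depended on the number of arrays and on the probe sets tested. The arrays of AT5G44980, AT5G60610, AT3G51530 and AT4G13960 did not overlap between genotypes. Leaving out 1 array could therefore not reverse their direction, and the 6 such fits are no test of it. When the test was limited to probe sets averaging 4 or more on the log2 scale, which leaves out those at the lowest signal, the adjusted p from limma was 0.0055 for AT5G44980, 0.0094 for AT5G60610 and 0.0077 for AT3G51530, whose means were above 4 in both genotypes. AT4G13960 passed that filter only through its L*er* arrays, so its value there is not given. The filter left the log2 fold changes as they were. Over the alternative settings the adjusted p from limma ran from 0.0055 to 0.189 for AT5G44980. It ran from 0.0094 to 0.152 for AT5G60610 and from 0.0049 to 0.093 for AT3G51530.

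**Figure D4:**
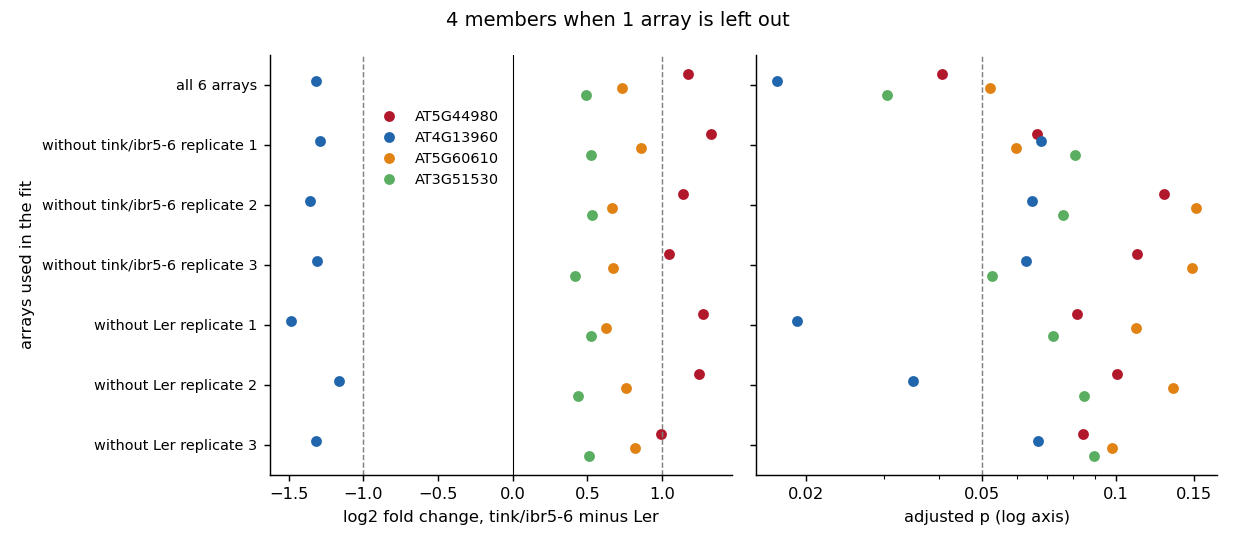
Log2 fold change (left) and adjusted p from limma on a log axis (right) of 4 members in the fit of all 6 arrays and in the 6 fits that leave out 1 array. Dashed lines mark log2 fold changes of -1 and 1 and an adjusted p of 0.05. AT4G13960 stays below -1 throughout and under an adjusted p of 0.05 in 2 of the 6 fits, and AT5G44980 in none.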

How the data were processed

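RNA of 3 *tink/ibr5-6* and 3 L*er* inflorescence samples was hybridised to Affymetrix ATH1 arrays. The authors used gcrma and deposited a log2 signal for every probe set of each array, which was taken here as it stands. No gcrma version was found. The 22810 probe sets include 64 controls, which were not tested. Among the remaining 22746, annotation names 1 gene for 13513 and several for 503, and 8730 are unlisted. A gene with several probe sets was represented by the one with the highest mean. The test used lmFit and eBayes from limma 3.58.1 (R 4.3.3), with the Benjamini-Hochberg adjustment made over every probe set tested. The prior for the spread had 0.401 degrees of freedom. The fit was tested on simulated data. The number of arrays limits the precision. The members, the lists of ubiquitin ligase, F-box and marker genes and the rule for naming genes were chosen with earlier results of these data known. The rule took called members, members with an adjusted p under 0.05, members without overlap and a log2 fold change beyond 0.5, members with signal in 1 genotype, neighbours of called members, members that complete a group along the chromosome, and, from the lists, up to 4 genes with the lowest p. AT3G03360, AT4G22280, the members without signal and the remaining list and marker genes were named outside it, with their values seen. Gene order, and the loci for the gene IDs of probe sets, came from RefSeq's TAIR10.1 assembly. Alternatives were other scalings, filters, priors, array weights, a replicate block, thresholds, probe sets and leaving out each array. Python 3.11.15 with numpy 2.4.6, pandas 2.3.3 and matplotlib 3.10.9 made the summaries.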

Additional observations from a re-analysis of the deposited data

How the results depend on the processing

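AT5G44980 and AT4G13960 were called in the same direction after quantile normalization, with arrays centred on their medians, with array weights, among probe sets with 1 gene and without probe sets that can match several genes. Taking the other probe set of AT5G22700 left the fit as it was, so it could not change these calls. Among probe sets averaging 4 or more AT5G44980 was called too, and AT4G13960 entered that set only through its L*er* arrays. The other members with signal were called under no alternative except AT3G51530 with no limit on the fold change. The members called were 0 higher and 0 lower among probe sets averaging 6 or more (7 members tested, neither called gene among them) and at an adjusted p under 0.01, and 0 higher with a trend and robust prior. With no limit on the fold change 2 were higher. Leaving out 1 array gave 0 higher, and 0 to 1 lower. The replicate numbers are shared by the genotypes, and the sources used here do not say whether they pair plants. Deviations of same-numbered arrays had correlations of -0.30, 0.02 and -0.05, which cannot show whether the plants were paired. With the replicate block 0 members were called higher and 0 lower, and 68 probe sets higher and 65 lower. The adjusted p from limma was then 0.189 for AT5G44980 and 0.077 for AT4G13960. The members' median was -0.0068 with centred arrays.

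Over all probe sets, 349 were called higher and 617 lower. The counts were 178 and 315 among probe sets with 1 gene, 167 and 199 at an adjusted p under 0.01, and 2184 and 1513 with no limit on the fold change, where 2 ubiquitin ligase genes were higher and 1 other F-box gene was lower. Among those averaging 6 or more, 259 were higher and 373 lower. Without 1 array 231 to 283 were higher and 287 to 463 lower. The 11 members under 3 were 9 by a mean within 0.1 of the lowest value and 13 by all 6 arrays under 4, a level chosen after seeing the data. The causes were not tested. Signal near background limits 11 of 25 members to no measured level.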
